A study of Mus musculus with 14 samples.

Results

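The genes described here are 48 genes of the cell cycle and of DNA replication, chosen by their symbols from the 25017 genes of the deposited count table, and all 48 were in the table and passed the filter on low counts. By role they fall into 24 mitotic genes, 16 replication genes (the Mcm, Cdc6, Gins and Rrm type) and 8 regulators (the E-type cyclins, E2F factors, Foxm1, Mybl2 and Uhrf1), and the replication genes are set against the mitotic genes throughout. RNA had been sequenced in bulk from sorted CD4+ T cells of mice transplanted as a model of cGVHD, the chronic form of graft-versus-host disease, in which grafted donor T cells attack the recipient over weeks. All recipients were BALB/C mice, and all of them received bone marrow of B6 (C57BL/6) donors from which T cells had been depleted (TCD-BM). The cGVHD animals also received splenocytes of the donor strain, which the GVHD-free animals did not. Cells were taken 30 days after the transplantation, were donor-derived CD4+ T cells throughout, and were sorted by the surface level of PSGL1 (P-selectin glycoprotein ligand 1, the product of Selplg) into a low and a high fraction, PSGL1lo and PSGL1hi. The 14 libraries form 7 groups of 2, of which 6 are the PSGL1lo and PSGL1hi fractions of the spleen, the liver and the lung of cGVHD animals, and the other is the PSGL1lo fraction of GVHD-free spleen. In the GVHD-free animals donor T cells could arise from the marrow graft alone, so the effect of disease and that of where those T cells came from cannot be told apart.

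A dividing T cell passes through a fixed order of steps. In G1 the cyclin-dependent kinases release E2F factors, which switch on the genes for licensing and copying DNA: Cdc6 and Cdt1 load the ring of Mcm helicase subunits on origins, Cdc45 and the Gins subunits turn that ring into the working helicase, Pcna is the sliding clamp of the polymerases, and Rrm1, Rrm2, Tyms and Tk1 supply deoxynucleotides. Later, around G2, the factors Mybl2 and Foxm1 act on genes for mitosis, through promoter elements known as CHR (cell cycle genes homology region) and the CCAAT boxes bound by NF-Y. Mitotic genes include the kinase Cdk1 with its cyclins, the spindle motors of the Kif family, the kinetochore proteins, and the anaphase machinery.

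The promoters of the 2 main roles differed in how often they held 3 short motifs, and 8 of them are shown because they differ in that respect. RefSeq promoter windows of the mouse build GRCm38.p6 were at hand for 39 of the 48 members. Each held 250 bases before and 50 bases after an annotated start. Windows rather than genes are counted below, and they belonged to 20 mitotic and 13 replication genes. Prc1 entered through 2 overlapping windows with the same matches. The letters searched on both strands were E2F letters (TTTCCCGC, TTTCGCGC, TTTGCCGC or TTTGGCGC), CHR letters (TTTGAA or TTCGAA) and CCAAT. CHR letters stood in 17 of 21 windows of mitotic members (81%), in 3 of 14 windows of replication members (21.4%) and in 6316 of all 32851 windows (19.2%). E2F letters stood in 1 of 21 mitotic windows (4.76%), that of Cdk1, in 6 of 14 replication windows (42.9%), those of Mcm3, Mcm5, Mcm6, Mcm7, Cdc6 and Cdt1, and in 744 of all windows (2.26%). CCAAT stood in 19 mitotic windows (90.5%), in 10 replication windows (71.4%) and in 37.4% of all windows, and CHR letters together with CCAAT in 17 mitotic windows against 7.52% of all. In the stretches below, the 250 bases before the start are printed 5′ to 3′ along the gene, and capitals mark the matched letters on either strand. Mki67 and Top2a stand for mitotic genes with several CHR and CCAAT matches. Cdk1 is the mitotic gene with E2F letters as well. Ccnb1 has CCAAT without TTTGAA or TTCGAA, and other spellings of a CHR were not searched. Mcm5, Mcm6 and Cdc6 stand for replication genes with E2F letters, where 2 E2F matches overlap in Mcm5 and 2 of the 3 overlap in Mcm6, and E2f8 is a regulator with CHR letters. A match describes letters and shows no binding.
Mki67 (chr7:135716380-135716629, minus strand): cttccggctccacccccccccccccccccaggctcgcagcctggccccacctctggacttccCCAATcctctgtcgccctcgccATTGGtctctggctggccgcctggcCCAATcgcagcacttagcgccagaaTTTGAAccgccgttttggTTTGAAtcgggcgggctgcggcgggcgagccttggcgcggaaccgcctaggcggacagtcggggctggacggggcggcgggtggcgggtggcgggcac
Top2a (chr11:99024190-99024439, minus strand): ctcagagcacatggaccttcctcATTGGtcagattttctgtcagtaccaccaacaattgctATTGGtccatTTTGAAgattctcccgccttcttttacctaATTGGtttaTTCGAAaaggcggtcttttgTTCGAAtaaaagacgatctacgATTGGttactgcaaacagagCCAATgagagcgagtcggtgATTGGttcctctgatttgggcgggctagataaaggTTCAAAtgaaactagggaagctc
Cdk1 (chr10:69352913-69353162, minus strand): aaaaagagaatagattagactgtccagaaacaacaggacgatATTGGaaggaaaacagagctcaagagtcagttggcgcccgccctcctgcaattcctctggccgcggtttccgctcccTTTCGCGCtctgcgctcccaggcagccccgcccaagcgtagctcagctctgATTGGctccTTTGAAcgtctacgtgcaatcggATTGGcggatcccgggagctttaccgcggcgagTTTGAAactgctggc
Ccnb1 (chr13:100786487-100786736, minus strand): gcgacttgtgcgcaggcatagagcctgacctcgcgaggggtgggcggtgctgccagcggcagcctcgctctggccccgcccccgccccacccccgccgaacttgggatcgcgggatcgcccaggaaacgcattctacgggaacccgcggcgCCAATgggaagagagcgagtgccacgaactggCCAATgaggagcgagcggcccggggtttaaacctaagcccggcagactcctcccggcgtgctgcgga
Mcm5 (chr8:75109259-75109508, plus strand): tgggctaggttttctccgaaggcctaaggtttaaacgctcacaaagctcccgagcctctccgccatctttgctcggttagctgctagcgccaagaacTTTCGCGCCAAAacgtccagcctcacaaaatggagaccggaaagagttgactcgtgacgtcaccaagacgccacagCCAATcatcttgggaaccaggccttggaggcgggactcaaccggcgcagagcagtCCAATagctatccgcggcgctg
Mcm6 (chr1:128359706-128359955, minus strand): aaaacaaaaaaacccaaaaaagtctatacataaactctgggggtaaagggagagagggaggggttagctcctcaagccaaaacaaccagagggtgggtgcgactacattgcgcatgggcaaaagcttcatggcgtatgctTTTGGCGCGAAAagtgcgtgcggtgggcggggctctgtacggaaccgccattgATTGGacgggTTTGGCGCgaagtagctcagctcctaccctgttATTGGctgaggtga
Cdc6 (chr11:98907901-98908150, plus strand): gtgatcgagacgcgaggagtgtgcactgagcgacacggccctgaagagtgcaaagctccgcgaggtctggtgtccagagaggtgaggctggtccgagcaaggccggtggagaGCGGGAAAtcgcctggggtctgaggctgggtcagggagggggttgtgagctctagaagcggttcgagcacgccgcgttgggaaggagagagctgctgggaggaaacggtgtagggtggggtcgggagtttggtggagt
E2f8 (chr7:48881597-48881846, minus strand): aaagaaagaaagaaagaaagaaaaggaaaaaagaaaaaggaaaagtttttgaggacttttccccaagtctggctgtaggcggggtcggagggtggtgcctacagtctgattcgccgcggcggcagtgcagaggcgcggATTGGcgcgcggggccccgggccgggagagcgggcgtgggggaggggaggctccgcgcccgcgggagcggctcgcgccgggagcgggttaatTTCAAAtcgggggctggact

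The libraries held 13222005 to 33532595 counts, and every member had at least 37 counts in each of them. Selplg was lower in both PSGL1lo libraries than in both PSGL1hi libraries of each tissue, at 281 and 238 against 516 and 491 CPM in spleen (CPM, counts scaled to library size and by TMM (trimmed mean of M values) factors between libraries). The 7 CD4 T cell marker genes in the table were detected in every group, with summed levels of 4857 to 8231 CPM. NK cell genes summed to at most 21.3 CPM and endothelial genes to 64.7 to 199.9 CPM. The labels do not say whether paired libraries were made from different animals. Each p-value therefore reflects only how far these libraries differ, which may be technical. In bulk RNA, fewer dividing cells and less message per dividing cell cannot be told apart. All spleen libraries belong to one series of library numbers and all liver and lung libraries to another, so tissue and series cannot be told apart wherever spleen is set against liver or lung. Close copies or shared stretches elsewhere in the genome (at least 95% identity over at least 200 bases of GENCODE M21 transcripts) were found for 15 of the 48 members, and how the authors counted reads that match several places was not stated in the sources at hand. The counts of Ccnb1, with 4 pseudogenes (one 99.2% identical over 1287 bases), and of Cdc6, Mcm7, Mki67, Mybl2, Pcna, Rrm2 and Uhrf1, each with a pseudogene copy, are uncertain to that extent. Those of Ccna2, Ccne2, E2f8, Gins2, Kif20a and Prc1, which share an identical stretch with a neighbouring gene, and of Tyms, which carries a repeated stretch, are uncertain too.

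All 48 genes had their lowest mean in lung PSGL1lo cells, and 45 of the 48 had their highest in spleen PSGL1hi cells of cGVHD animals. Those 45 were all 24 mitotic genes, 15 of 16 replication genes and 6 of 8 regulators. The exceptions were the transcription factors E2f1 and E2f8, highest in liver PSGL1hi, and the licensing factor Cdt1, highest in lung PSGL1hi. How many of all genes had their extremes in these groups was not counted, so nothing particular to the members is read from these counts. Spleen and lung libraries belong to different number series, so tissue and series cannot be told apart here. From lowest to highest group the span was 3.25-fold (Cenpa) to 22.4-fold (Ccnb1) among mitotic genes, and 2.06-fold (Mcm4) to 9.96-fold (Rrm2) among replication genes.

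**Figure D1:**
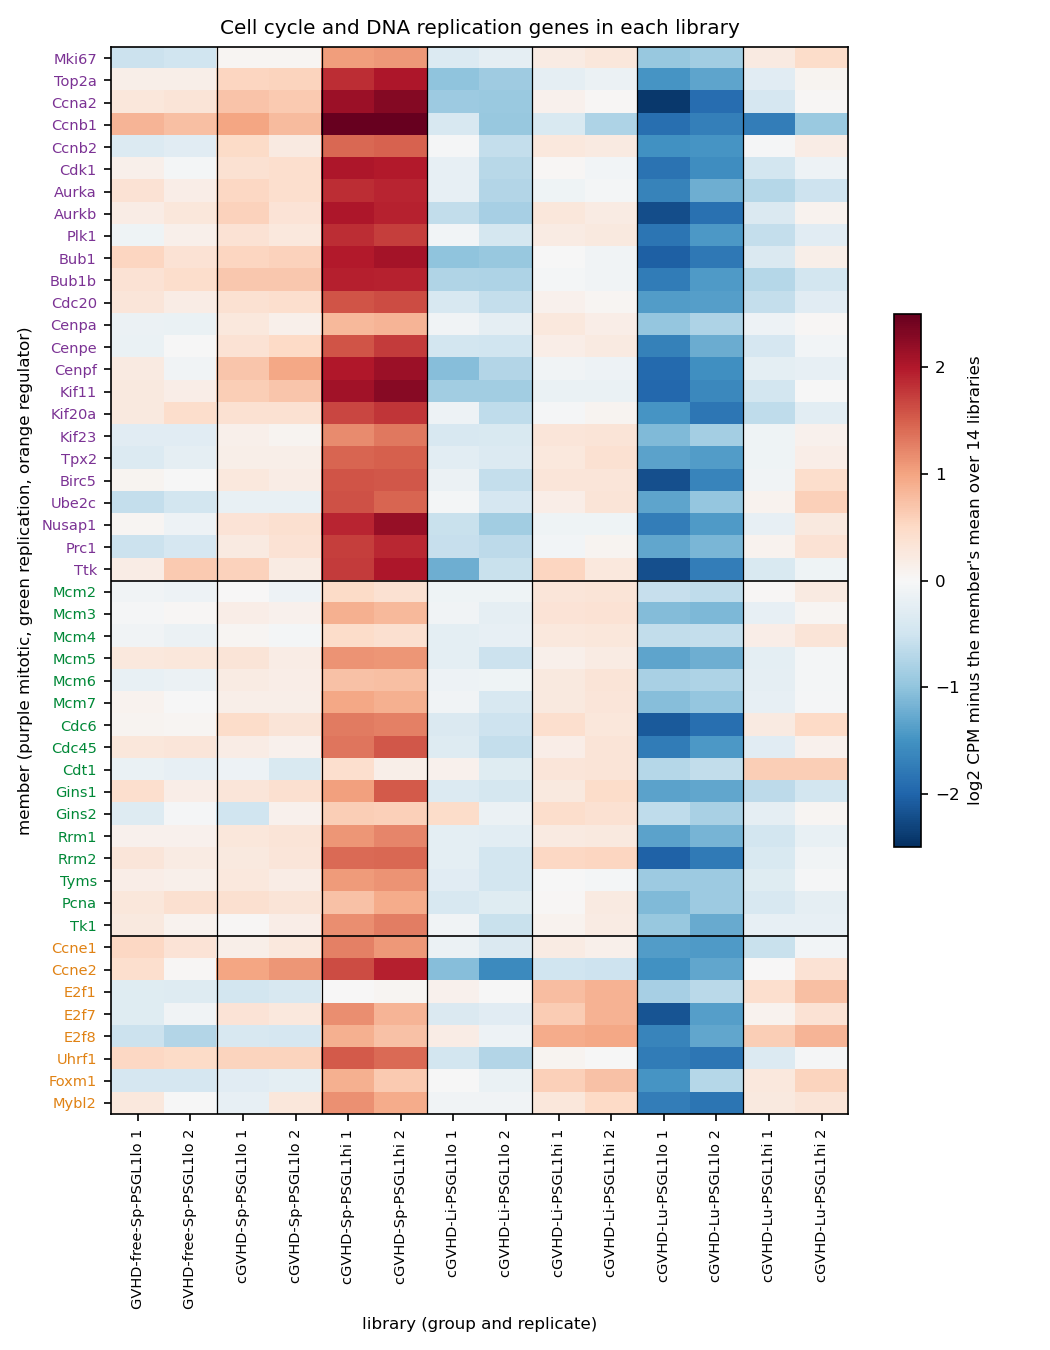
Log2 CPM of each of the 48 genes (rows, coloured by role) in each of the 14 libraries (columns), minus the gene's mean over the libraries. The 2 columns of spleen PSGL1hi are red for nearly every gene, the 2 columns of lung PSGL1lo are blue for all, and most mitotic rows span a wider range of colour than most replication rows.

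In the spleen of cGVHD animals, the comparison of the fractions asks how PSGL1lo and PSGL1hi CD4+ T cells differ in cycling genes within one organ. All 48 genes were lower in PSGL1lo than in PSGL1hi cells (adjusted p under 0.05, edgeR's quasi-likelihood test), where 16.7% of all 13780 genes tested were called lower and 32.5% were called in either direction. No member's libraries overlapped between the 2 fractions. How often that held over all genes tested was not counted, so nothing particular to the members is read from it. The median log2 change was -1.40 over the 24 mitotic genes, -0.82 over the 16 replication genes, -0.94 over the 8 regulators, and 0 over all genes.

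Among mitotic genes, Mki67, the proliferation antigen that coats mitotic chromosomes, was at 486 and 481 CPM in the 2 PSGL1lo libraries and at 968 and 997 CPM in the 2 PSGL1hi libraries. That is a log2 change of -1.02 ± 0.07 (SE; adjusted p = 1.01e-09), where SE is the standard error, as for each ± after a log2 change below. Top2a, the topoisomerase that untangles sister DNA, stood at 517 and 527 against 1288 and 1439 CPM, a log2 change of -1.39 ± 0.09 (SE; adjusted p = 2.77e-10). Cdk1, the kinase that drives entry into mitosis, stood at 43 and 44 against 134 and 131 CPM (-1.60 ± 0.13 SE, adjusted p = 5.11e-09). The PSGL1lo libraries lay close together for these 3 genes, and far below the PSGL1hi libraries. The largest log2 changes were those of Ccnb1 (-1.79 ± 0.19), the cyclin B1 partner of Cdk1, Ube2c (-1.71 ± 0.16), the ubiquitin-conjugating enzyme of the anaphase-promoting complex, and Nusap1 (-1.67 ± 0.13), a spindle microtubule protein. Birc5 (survivin), of the chromosomal passenger complex, stood at 31.1 and 29.6 against 77.7 and 76.5 CPM (-1.34 ± 0.15 SE, adjusted p = 7.47e-07). The smallest mitotic change was -0.64 ± 0.09, of Cenpa, the centromeric histone variant.

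Replication genes were lower in PSGL1lo cells by smaller amounts. Mcm2, a helicase subunit, was at 147 and 133 CPM in PSGL1lo and 204 and 190.4 CPM in PSGL1hi libraries, a log2 change of -0.50 ± 0.08 (SE; adjusted p = 3.97e-05). The 3 smallest changes of all members were those of Mcm4 (-0.44 ± 0.07), of E2f1 (-0.46 ± 0.15) and of Pcna (-0.47 ± 0.09), which stood at 136 and 129 against 171 and 196 CPM. Both PSGL1hi libraries were above both PSGL1lo libraries for these genes too, but by less than for the mitotic genes just given. The call of E2f1 was lost when any one of the 4 libraries was left out, with adjusted p of 0.0606 to 0.116. Mcm5 stood at 201 and 184 against 351 and 349 CPM (-0.87 ± 0.09 SE, adjusted p = 1.34e-07), and Cdc6 at 24.2 and 22.3 against 43.7 and 42.6 CPM (-0.89 ± 0.12 SE, adjusted p = 4.96e-06). Rrm2, the small subunit of ribonucleotide reductase, changed by -1.15 ± 0.10 (SE; adjusted p = 8.99e-09), from 172 and 173 CPM in PSGL1hi to 76.4 and 79 CPM in PSGL1lo libraries. Only Cdc45, at -1.31 ± 0.14, moved further than Rrm2 among the replication genes. The calls of Cdt1 (-0.54 ± 0.12), of Gins2 (-0.75 ± 0.21) and of the repressor E2f7 (-0.71 ± 0.19) were also lost without single libraries. Without cGVHD spleen PSGL1lo replicate 2, Cdt1 had an adjusted p of 0.0511, and E2f7 0.0602. Without replicate 1 of that group Gins2 had 0.154, and without spleen PSGL1hi replicate 1 E2f7 had 0.0921.

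Among regulators, Ccne1, the cyclin E1 of the G1-to-S step, stood at 19.8 and 21.5 against 42.6 and 37.9 CPM (-0.96 ± 0.14 SE, adjusted p = 1.34e-05). E2f8, a repressor that turns E2F targets off, stood at 14.2 and 13.9 against 34.6 and 30.9 CPM (-1.22 ± 0.14 SE, adjusted p = 6.54e-07), the largest change of the 8. Mybl2, at 9.01 and 12.5 against 22.7 and 19.5 CPM, changed by -0.96 ± 0.16 (SE; adjusted p = 8.82e-05). The other regulators that fell were Foxm1 (-1.04), Uhrf1 (-0.93), which keeps DNA methylation through replication, and Ccne2 (-0.75).

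Markers of other cells moved with the fraction in the same libraries. The 2 CD8 T cell genes summed to 11.8 and 12.3 CPM in spleen PSGL1lo and 77.6 and 77.5 CPM in PSGL1hi libraries, the myeloid genes to 192 and 179 against 371 and 399 CPM, and the B and plasma cell genes to 21.2 and 19.6 against 50.6 and 57.3 CPM. Erythroid genes, of a lineage with many dividing precursors in spleen, summed to 30.2 and 26.9 against 36.9 and 36.2 CPM, and 6 of the 10 were at 0 in each of the spleen groups. Of the CD8 and myeloid genes none was at 0 in either fraction, and of the 8 B and plasma cell genes 1 was at 0 in PSGL1lo. Their part in the result was not tested.

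In the liver, PSGL1lo cells had lower levels than PSGL1hi cells for 44 of the 48 genes, where 12.3% of all genes were called lower, 8.5% higher and 20.8% in either direction. Called were 21 of 24 mitotic genes, 15 of 16 replication genes and all 8 regulators. The medians were close together, at -0.61 for mitotic, -0.49 for replication and -0.75 for regulator genes, against -0.02 over all genes. The 4 genes that did not pass were Ccnb1 (-0.04 ± 0.22 SE, adjusted p = 0.923), Gins2 (-0.21 ± 0.19 SE, adjusted p = 0.49), the spindle-pole kinase Aurka (-0.36 ± 0.15 SE, adjusted p = 0.107) and the cytokinesis motor Kif20a (-0.37 ± 0.14 SE, adjusted p = 0.0558). With library totals in place of TMM 36 genes were called, and with only the 2 liver groups in the fit 35. Cdk1, Plk1, Ube2c, Cdt1, Tyms, Tk1, Ccne1 and Mybl2 lost the call both times (adjusted p of 0.0596 to 0.0784 and 0.059 to 0.128, edgeR), and Ccnb2 the second time (0.0611). DESeq2 did not call Ccne1 (0.0513) or Mybl2 (0.056), while Kif20a passed with limma voom (0.0463) and with no filter on low counts (0.00252).

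Ttk, the spindle checkpoint kinase, showed the largest change, -1.28 ± 0.21 (SE; adjusted p = 0.000151), at 3.66 and 5.85 CPM in PSGL1lo and 12.4 and 10.3 CPM in PSGL1hi libraries. E2f7 followed at -1.08 ± 0.19 (SE; adjusted p = 0.000258), and Ccna2, the cyclin A2 of S phase and G2, at -0.98 ± 0.12 (SE; adjusted p = 4.69e-06). For each of these genes both PSGL1lo libraries lay below both PSGL1hi libraries. Mki67 stood at 369.9 and 397 against 535 and 568 CPM (-0.52 ± 0.07 SE, adjusted p = 1.71e-05). Top2a stood at 179 and 192 against 307 and 321 CPM (-0.76 ± 0.09 SE, adjusted p = 2.62e-06), and Birc5 at 23.5 and 17.1 against 32.1 and 32.2 CPM (-0.65 ± 0.15 SE, adjusted p = 0.00409). Ccnb1, by contrast, was low and overlapping, at 4.92 and 3.37 against 4.94 and 3.81 CPM. Cdk1 stood at 28.6 and 20.3 against 33.7 and 31.5 CPM (-0.40 ± 0.13 SE, adjusted p = 0.0337), and its call was lost without liver PSGL1lo replicate 2 (adjusted p = 0.273) or either liver PSGL1hi library (0.19 and 0.0854).

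Among liver replication genes Rrm2 moved furthest, from 92 and 93.2 CPM in PSGL1hi to 54.1 and 46.5 CPM in PSGL1lo libraries (-0.88 ± 0.10 SE, adjusted p = 7.1e-07). Cdc6 stood at 13.8 and 12.4 against 23.7 and 21.5 CPM (-0.78 ± 0.12 SE, adjusted p = 4.93e-05), Mcm5 at 136 and 112 against 176 and 185 CPM (-0.54 ± 0.09 SE, adjusted p = 0.000106), and Mcm2 at 136 and 136 against 179 and 182 CPM (-0.41 ± 0.08 SE, adjusted p = 0.000418). Both PSGL1lo libraries were below both PSGL1hi libraries for each. Pcna changed by -0.47 ± 0.09 (SE; adjusted p = 0.00075), nearly the same as in spleen. The smallest called change was that of Tyms, thymidylate synthase (-0.34 ± 0.10 SE, adjusted p = 0.021). Among regulators, E2f1 stood at 13.1 and 12 against 20.6 and 22 CPM (-0.76 ± 0.13 SE, adjusted p = 0.000212) and E2f8 at 21.3 and 17.1 against 35.7 and 36.8 CPM (-0.91 ± 0.13 SE, adjusted p = 1.68e-05). Ccne1 changed by -0.42 ± 0.14 (SE; adjusted p = 0.032) and Mybl2 by -0.48 ± 0.16 (SE; adjusted p = 0.0314). Over genes in general, the 2 liver PSGL1lo libraries differed more from each other than any other pair (a chi-square of 19.6 per degree of freedom). Replicate 1 was the higher for 36 of the 48 genes. In the mean log2 CPM of the mitotic genes the lung pairs differed more (SD 0.244 in PSGL1hi and 0.179 in PSGL1lo, against 0.107 in liver PSGL1lo). For the replication genes these SDs were 0.145, 0.0431 and 0.133 in the same order. Leaving out liver PSGL1lo replicate 2 took the calls of Ccnb2, Plk1, Ube2c, Cdt1, Tyms, Tk1, Ccne1 and Mybl2 as well, with adjusted p of 0.0501 to 0.22. Leaving out replicate 1 in its place brought Aurka (adjusted p = 0.00853) and Kif20a (0.00231) past the threshold and lost Mybl2 (0.0964). Without liver PSGL1hi replicate 1 the calls of Plk1, Cenpa, Ube2c, Cdt1, Tyms, Tk1, Ccne1 and Mybl2 were lost (0.0581 to 0.183), and without replicate 2 those of Plk1, Ube2c, Cdt1, Gins1, Tyms, Tk1, Ccne1 and Mybl2 (0.0803 to 0.261). In these libraries the hepatocyte genes summed to 50.6 and 43.1 CPM in PSGL1lo and 22.2 and 17.4 CPM in PSGL1hi, the CD8 T cell genes to 31.5 and 28 against 141 and 142 CPM, and the myeloid genes to 128 and 41.4 against 86.9 and 43.1 CPM, and their part in the result was not tested.

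In the lung, 47 of the 48 genes were lower in PSGL1lo than in PSGL1hi cells, where 20.1% of all genes were called lower and 33% in either direction. The median log2 change was -1.41 for mitotic genes, -0.89 for replication genes and -1.60 for regulators, against -0.03 over all genes. The gene that did not pass was Ccnb1 (-0.54 ± 0.27 SE, adjusted p = 0.133), at 1.74 and 1.96 CPM in PSGL1lo and 1.95 and 3.41 CPM in PSGL1hi libraries, which overlapped. Without lung PSGL1hi replicate 1 it passed as well (-0.89, adjusted p = 0.0216).

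Cdc6 showed the largest change of any member, -2.36 ± 0.14 (SE; adjusted p = 2.67e-11), with 4.11 and 4.78 CPM in PSGL1lo and 20.7 and 25 CPM in PSGL1hi libraries, 5.14-fold apart. E2f8 came next, at 5.98 and 7.64 against 28.7 and 33.7 CPM (-2.20 ± 0.14 SE, adjusted p = 1.28e-10), then Birc5 at 5.68 and 8.26 against 24.4 and 35.2 CPM (-2.10 ± 0.18 SE, adjusted p = 5.66e-09). Even the higher PSGL1lo library lay far below the lower PSGL1hi library for these 3 genes. Mybl2 stood at 3.09 and 2.9 against 12.2 and 12.9 CPM (-2.06 ± 0.18 SE, adjusted p = 1.33e-08), and E2f1 at 6.83 and 7.59 against 16.2 and 20.2 CPM (-1.34 ± 0.14 SE, adjusted p = 1.73e-07). Ccne1 changed by -1.11 ± 0.15 (SE; adjusted p = 6.84e-06). The mitotic genes Mki67 (-1.24 ± 0.07), Top2a (-1.30 ± 0.09) and Cdk1 (-1.41 ± 0.15) fell by amounts near those in spleen. Mki67 was at 243 and 257 against 547 and 638 CPM, and Cdk1 at 9.2 and 11.2 against 23.9 and 30.2 CPM. Rrm2 stood at 15.9 and 18.8 against 49.5 and 60.3 CPM (-1.67 ± 0.11 SE, adjusted p = 1.04e-10). The 2 lung PSGL1hi libraries were unequal, with replicate 2 the higher for every member but Cdt1 and Tk1. Both stayed above both PSGL1lo libraries except for Ccnb1, but how often that held over all genes tested was not counted.

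Smaller lung changes were those of Mcm2 (-0.74 ± 0.08, 97.3 and 93.9 against 149 and 171 CPM), Pcna (-0.69 ± 0.10) and Mcm5 (-1.12 ± 0.09). The smallest called were Gins2 (-0.64 ± 0.21) and Mcm6 (-0.66 ± 0.07). The call of Gins1 (-0.76 ± 0.22) was lost without lung PSGL1lo replicate 1 or 2 or lung PSGL1hi replicate 2 (adjusted p of 0.053, 0.0598 and 0.0794), and that of Gins2 without lung PSGL1lo replicate 2 or lung PSGL1hi replicate 2 (0.167 and 0.177). With library totals in place of TMM, the median of all genes in this comparison moved to 0.12 and the split of calls from 1774 higher and 2772 lower to 3168 higher and 1665 lower. The lung epithelium genes summed to 5.05 and 86.8 CPM in PSGL1lo and 44.8 and 35.9 CPM in PSGL1hi, the myeloid genes to 775 and 1172 against 686 and 859 CPM, and the CD8 T cell genes to 12.1 and 12.4 against 28.5 and 30.6 CPM, and their part in the result was not tested.

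**Figure D2:**
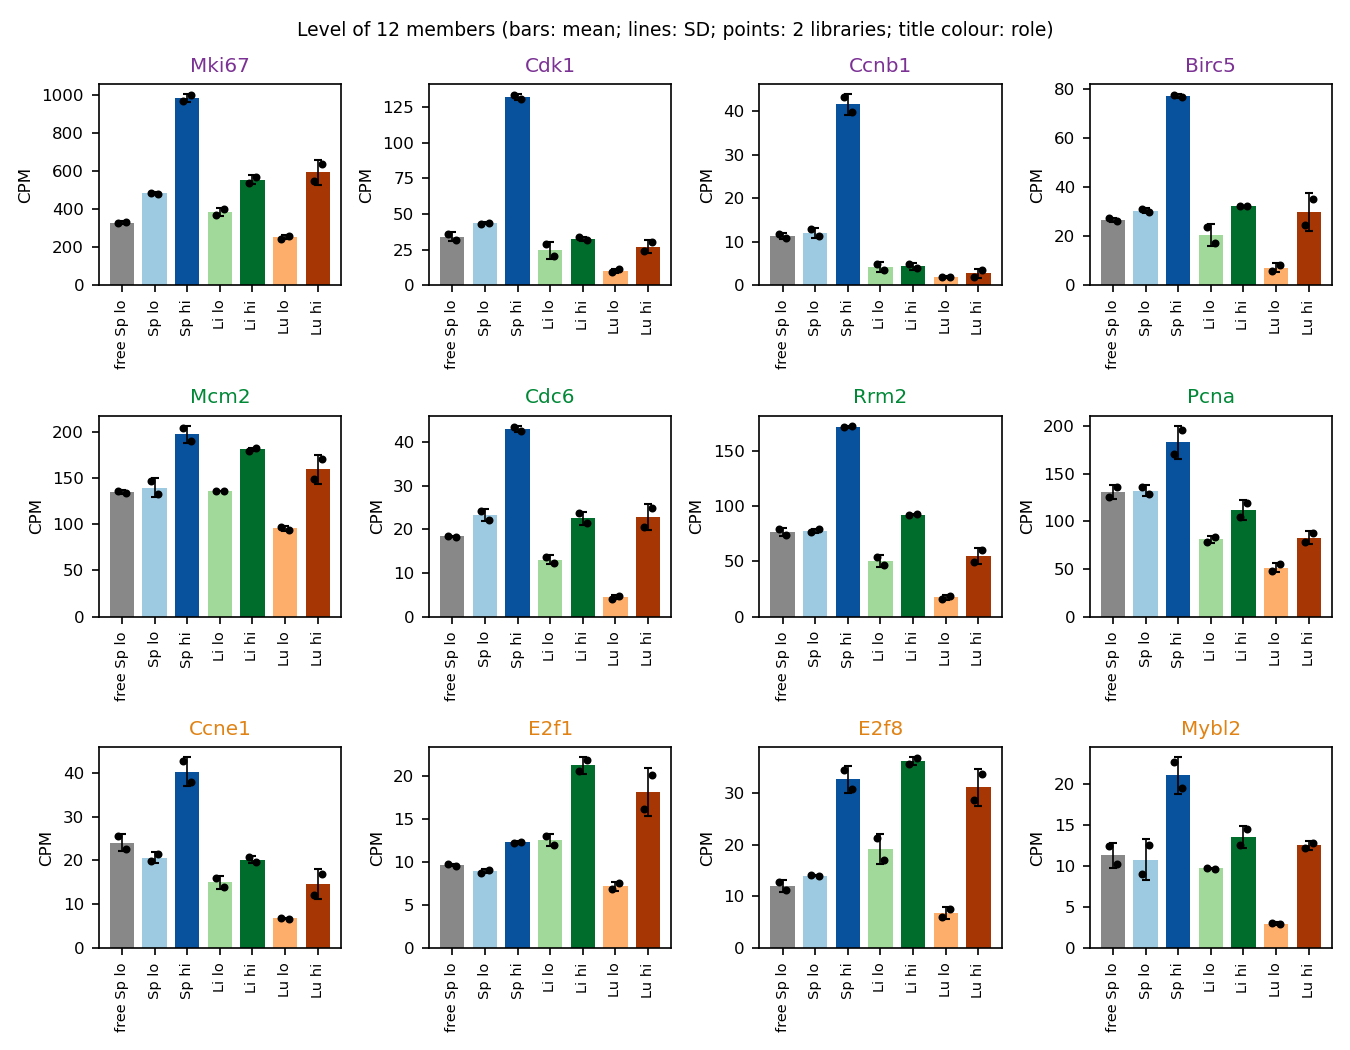
CPM of 12 of the genes in the 7 groups, with bars for the mean, lines for the SD and points for the 2 libraries of a group (Sp spleen, Li liver, Lu lung, free GVHD-free, lo and hi the PSGL1 fractions); title colours give the role, purple mitotic, green replication and orange regulator. Spleen PSGL1hi is the tallest bar for 10 of the 12 and liver PSGL1hi for E2f1 and E2f8, while lung PSGL1lo is the shortest for all 12.

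Setting the replication genes against the mitotic genes, the mitotic genes differed more between the fractions in spleen and in lung. In spleen 23 of 24 mitotic genes lay below the replication median of -0.82, and all 16 replication genes lay above the mitotic median of -1.40. In lung 21 of 24 mitotic genes lay below the replication median of -0.89, and 13 of 16 replication genes above the mitotic median of -1.41. In liver the roles were less apart, with 17 of 24 mitotic genes below -0.49 and 12 of 16 replication genes above -0.61. The ranges of the roles overlapped in all 3 tissues: Cenpa among mitotic genes moved less in spleen than Cdc45 among replication genes, and in lung Cdc6 moved further than any mitotic gene. The difference of the medians, mitotic minus replication, was -0.58 in spleen, -0.12 in liver and -0.51 in lung, and leaving out one library at a time kept its sign in each tissue (-0.61 to -0.55, -0.15 to -0.09, and -0.59 to -0.43).

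The same contrast can be read per library, as the mean log2 CPM of the 24 mitotic genes minus that of the 16 replication genes. Its own value depends on gene lengths, so only its change between libraries is meaningful. It was 0.21 and 0.24 in the spleen PSGL1hi libraries, -0.34 and -0.36 in the PSGL1lo libraries of cGVHD spleen, and -0.64 and -0.61 in those of GVHD-free spleen. The 3 spleen groups did not overlap. In liver it was -0.93 and -0.89 in PSGL1lo against -0.77 and -0.83 in PSGL1hi, and in lung -1.12 and -0.93 against -0.79 and -0.65. The liver and the lung fractions did not overlap either, but all 8 of those libraries lay below all 6 spleen libraries.

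**Figure D3:**
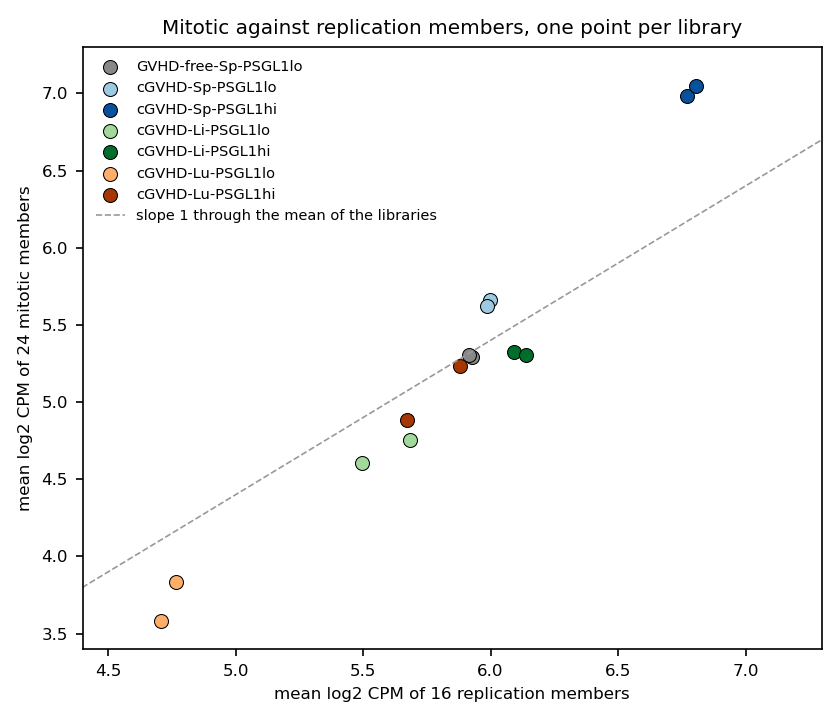
Mean log2 CPM of the 24 mitotic genes (vertical) against that of the 16 replication genes (horizontal), 1 point per library, coloured by group; the dashed line has a slope of 1, drawn through the mean of the libraries, along which both roles change equally. The spleen PSGL1hi libraries lie furthest above the line and the lung PSGL1lo libraries furthest below it, with both role means lowest in lung PSGL1lo.

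Whether the effect of the fraction itself differed between tissues was tested by interaction terms in the same fit. Between liver and spleen, 18 of the 48 genes had a smaller drop in liver and none a larger one (2.64% of all genes were called in that direction, 4.2% in the other and 6.84% in either). Those were 16 of 24 mitotic genes and 2 of 16 replication genes, Tyms (0.53) and Tk1, thymidine kinase (0.67), and no regulator. The largest were Ccnb1 (1.75 ± 0.29 SE, adjusted p = 0.000863), Ube2c (1.24 ± 0.22 SE, adjusted p = 0.00158) and Cdk1 (1.20 ± 0.18 SE, adjusted p = 0.000479), where the log2 drop of Cdk1 was -1.60 in spleen and -0.40 in liver. The other genes among the 8 smallest adjusted p were Prc1, the midzone bundler (0.91), Nusap1 (1.08), the spindle assembly factor Tpx2 (0.71), the motor Kif11 (0.83) and Kif20a (0.98). Smallest were Pcna (-0.000802 ± 0.13), Ccne2 (-0.03 ± 0.24) and Mcm4 (-0.06 ± 0.10), which did not pass. The median was 0.63 for mitotic and 0.24 for replication genes, with all 24 mitotic genes above 0. Without liver PSGL1lo replicate 2 the count rose to 28, made of 19 mitotic genes, 7 replication genes and 2 regulators. The 5 replication genes that then passed besides Tyms and Tk1 were Mcm5, Mcm7, Cdc45, Gins2 and Rrm1, and the other genes gained were Aurkb, Birc5, Ccnb2, Ccne1 and Uhrf1 (adjusted p of 0.000302 to 0.0396). The split of 16 mitotic against 2 replication genes thus rested in part on that library. Without other single libraries the count was as low as 12, all of them mitotic. The call of Tk1 was lost without any of 7 of the 8 libraries (adjusted p of 0.0622 to 0.344) and that of Tyms without any of 6 (0.0668 to 0.131). Of the mitotic genes, Ccna2 lost the call without any of 6 libraries (0.103 to 0.183), Cenpe without any of 6 (0.0949 to 0.172), Cdc20 without any of 5 (0.056 to 0.0867), Bub1b without any of 3 (0.0521 to 0.0752) and Aurka, just over the threshold, without liver PSGL1lo replicate 1.

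Between lung and spleen, 11 genes had a larger drop in lung (11.1% of all genes were called in that direction) and 1, Ccnb1, a smaller one (1.25 ± 0.33 SE, adjusted p = 0.0119; 5.51% called, 16.6% in either direction). Of the 11, 6 were regulators, 4 were replication genes and 1 was mitotic, Birc5 (-0.76). Cdc6 led (-1.47 ± 0.18 SE, adjusted p = 8.33e-06), with log2 drops of -0.89 in spleen and -2.36 in lung. The regulators were E2f7 (-1.23), Mybl2 (-1.10), E2f8 (-0.98), E2f1 (-0.88), Ccne2 (-0.85) and Uhrf1 (-0.67). The other replication genes were Cdt1 (-0.73), Rrm2 (-0.52) and Mcm4 (-0.40). Smallest were Cenpe, a kinetochore motor (0.01 ± 0.18), Kif11 (-0.03 ± 0.17) and Prc1 (0.05 ± 0.14). The count of 11 fell to 6 without spleen PSGL1hi replicate 2, and to 7 without lung PSGL1lo replicate 1 or lung PSGL1hi replicate 2. Birc5, Rrm2, Ccne2, Ccnb1, E2f7, Mcm4 and Cdt1 each lost the call without at least 1 of the 8 libraries (adjusted p of 0.0501 to 0.203), Birc5 without 6 of them, Rrm2 without 5, Ccne2 without 4, Ccnb1 without 3, E2f7 and Mcm4 without 2, and Cdt1 without 1. By role, 4 to 7 regulators, 1 to 5 replication genes and 0 to 3 mitotic genes had a larger drop in lung when single libraries were left out. With library totals alone, calls over all genes moved from 759 higher and 1523 lower to 1416 higher and 925 lower, with a median of 0.11, and 8 members were called lower.

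Between lung and liver, whose libraries share a number series, 28 genes had a larger drop in lung and none a smaller one (3.89% of all genes were called in that direction, 2.08% in the other and 5.97% in either). They were 17 mitotic genes, 8 replication genes and 3 regulators. The largest were Mybl2 (-1.58 ± 0.24 SE, adjusted p = 0.000212), Cdc6 (-1.58 ± 0.18 SE, adjusted p = 9.3e-06) and Birc5 (-1.45 ± 0.23 SE, adjusted p = 0.000372). The other genes among the 8 smallest adjusted p were Mki67 (-0.72), Uhrf1 (-0.98), E2f8 (-1.29), Tpx2 (-0.79) and Prc1 (-0.86). Smallest were Gins1 (-0.02 ± 0.28), Pcna (-0.22 ± 0.13) and Mcm6 (-0.24 ± 0.10). The count was 18 without lung PSGL1lo replicate 1, 15 without lung PSGL1hi replicate 2, and 18 when only the 4 groups of this contrast were fitted. Over all settings with 1 library left out, 9 to 17 mitotic genes, 3 to 10 replication genes and 3 to 6 regulators were called.

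**Figure D4:**
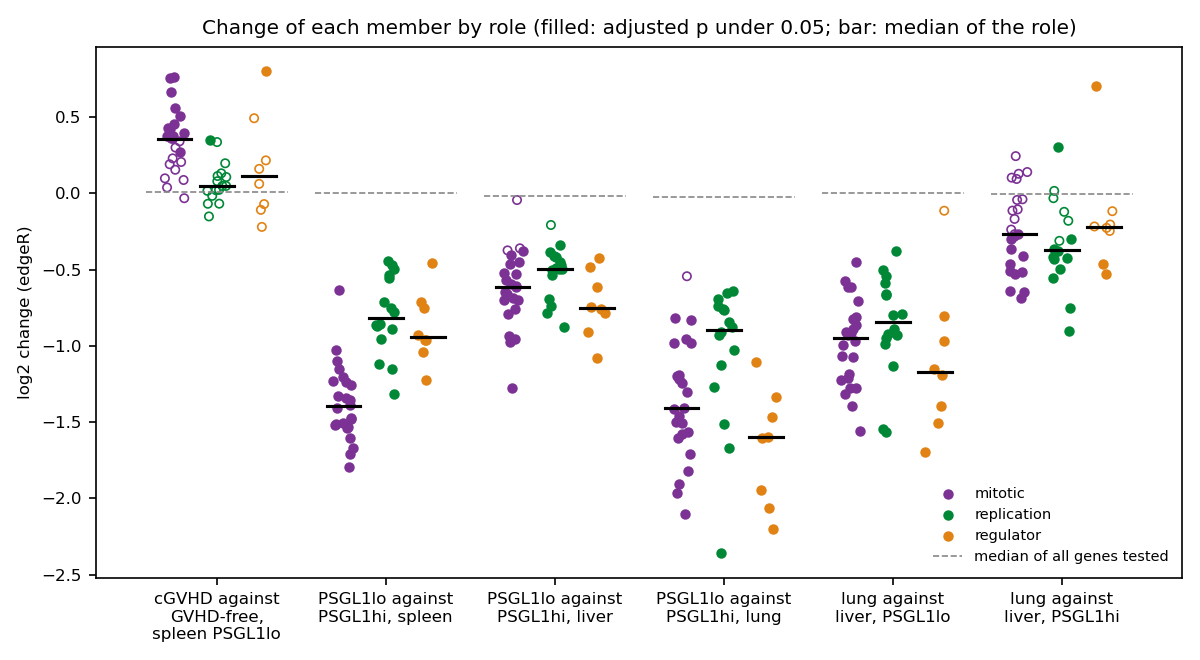
Log2 change of each of the 48 genes in 6 comparisons (groups along the horizontal axis), by role; filled points passed an adjusted p of 0.05, short bars are the medians of the roles and dashed lines the medians of all genes tested. Most mitotic genes lie below the replication median for PSGL1lo against PSGL1hi in spleen, liver and lung and for lung against liver PSGL1lo. Most lie above it for cGVHD against GVHD-free and for lung against liver PSGL1hi.

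The comparison of disease asks whether spleen PSGL1lo CD4+ T cells of cGVHD animals differ from those of GVHD-free animals. Of the 48 genes, 15 were higher in cGVHD and none lower, where 14.7% of all genes were called higher, 12.8% lower and 27.5% in either direction. Those 15 were 13 of 24 mitotic genes, 1 of 16 replication genes, Mcm6, and 1 of 8 regulators, Ccne2. The share of replication genes called, 1 of 16, was not above the background. The median log2 change was 0.36 for mitotic, 0.05 for replication and 0.11 for regulator genes, against 0.01 over all genes. Of the mitotic genes 22 of 24 lay above the replication median, and all 16 replication genes lay below the mitotic median.

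Ccne2, the cyclin E2 of S-phase entry, moved furthest, at 25.8 and 28 CPM in cGVHD and 17.5 and 13.3 CPM in GVHD-free libraries (0.80 ± 0.17 SE, adjusted p = 0.00106). Prc1 stood at 57.8 and 63.4 against 34.2 and 37.3 CPM (0.76 ± 0.11 SE, adjusted p = 7.98e-06), and Cenpf, a kinetochore protein, at 62.6 and 75.2 against 45.3 and 36.3 CPM (0.75 ± 0.13 SE, adjusted p = 0.000101). Both cGVHD libraries lay above both GVHD-free libraries for all 3, though the replicates of Cenpf and Ccne2 were less even than those of Prc1. Mki67 stood at 486 and 481 against 324 and 333 CPM (0.56 ± 0.07 SE, adjusted p = 4.39e-06) and Top2a at 517 and 527 against 395 and 397 CPM (0.40 ± 0.09 SE, adjusted p = 0.0019). The further mitotic genes called were Ccnb2 (0.66), Cenpe (0.50), Kif11 (0.45), Tpx2 (0.43), Nusap1 (0.42), Kif23 (0.38), Ccna2 (0.38), Cenpa (0.36) and Bub1b (0.27). Cdk1 was at 43 and 44 against 36.1 and 31.7 CPM and missed the threshold (0.36 ± 0.14 SE, adjusted p = 0.0579). Ccnb1 (0.09 ± 0.20 SE, adjusted p = 0.804) and Birc5 (0.19 ± 0.16 SE, adjusted p = 0.44) did not pass either.

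The replication genes stood close to each other in the 2 groups. Mcm6 was at 417 and 407 CPM in cGVHD and 319 and 327 CPM in GVHD-free libraries (0.35 ± 0.07 SE, adjusted p = 0.000528). Rrm2 stood at 76.4 and 79 against 79.5 and 74.1 CPM (0.02 ± 0.10 SE, adjusted p = 0.935), Pcna at 136 and 129 against 126 and 136 CPM (0.02 ± 0.09 SE, adjusted p = 0.908), and Mcm5 at 201 and 184 against 193 and 196 CPM (-0.02 ± 0.09 SE, adjusted p = 0.922). These 3 were the smallest changes of all 48 genes, and their libraries overlapped. Mcm2 (0.05 ± 0.08) and Cdc6 (0.34 ± 0.13, adjusted p = 0.0529) did not pass. Of the regulators, E2f1 (-0.11 ± 0.16), E2f8 (0.22 ± 0.15), Ccne1 (-0.22 ± 0.14) and Mybl2 (-0.07 ± 0.17) did not pass. Leaving out single libraries gave 10 or 11 genes called higher in place of 15. Ccna2, Bub1b, Kif23, Nusap1, Cenpe, Kif11 and Cenpa each lost the call without at least 1 library: Ccna2 and Bub1b without any of the 4, Kif23 without either GVHD-free library or cGVHD replicate 1, Nusap1 without GVHD-free replicate 2 or either cGVHD library, Cenpe without GVHD-free replicate 1 or cGVHD replicate 2, Kif11 without GVHD-free replicate 2 or cGVHD replicate 2, and Cenpa without cGVHD replicate 1. Their adjusted p values then were 0.0581 to 0.232. The cGVHD spleen PSGL1lo libraries serve in both the disease and the spleen fraction comparison, so the 2 are not independent: the mitotic median was 0.36 in the first and -1.40 in the second, and the replication median 0.05 and -0.82. In the disease comparison the erythroid genes summed to 13.7 and 12.4 CPM in GVHD-free and 30.2 and 26.9 CPM in cGVHD libraries, the myeloid genes to 133 and 126 against 192 and 179 CPM, and the B and plasma cell genes to 66.2 and 68.5 against 21.2 and 19.6 CPM, and their part in the result was not tested.

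Within the series of liver and lung libraries, the tissues were compared fraction by fraction. In PSGL1lo cells 47 of the 48 genes were lower in lung than in liver, where 20.4% of all genes were called lower and 39.9% in either direction. All 24 mitotic genes and all 16 replication genes passed, with medians of -0.95 and -0.84 against 0 over all genes, and of the regulators only Ccne2 did not (-0.11 ± 0.20 SE, adjusted p = 0.688). The largest changes were those of Mybl2 (-1.70 ± 0.18 SE, adjusted p = 2.35e-07), Cdc6 (-1.56 ± 0.14 SE, adjusted p = 1.59e-08) and Birc5 (-1.56 ± 0.18 SE, adjusted p = 4.81e-07), and the smallest called were Mcm4 (-0.38 ± 0.07) and Top2a (-0.45 ± 0.09). Rrm2 (-1.54 ± 0.11), E2f8 (-1.51 ± 0.14), Cdk1 (-1.28 ± 0.15), Ccnb1 (-1.19 ± 0.25) and Ccne1 (-1.15 ± 0.15) fell by over 2-fold. Mcm5 (-0.89 ± 0.09), E2f1 (-0.80 ± 0.14), Pcna (-0.66 ± 0.09), Mki67 (-0.62 ± 0.07) and Mcm2 (-0.51 ± 0.08) fell by less. The medians of the 2 roles lay near each other here, as in the liver fractions and less far apart than in the spleen and lung fractions, and without lung PSGL1lo replicate 1 the mitotic minus replication difference went from -0.10 to 0.08.

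In PSGL1hi cells the distance between the tissues was smaller, with 24 genes lower in lung, 2 higher and 22 not called, where 18.3% of all genes were called lower, 20.1% higher and 38.4% in either direction. Lower were 12 mitotic genes, 10 replication genes and 2 regulators. The medians were -0.27 for mitotic and -0.37 for replication genes. Largest were Gins1 (-0.90 ± 0.19 SE, adjusted p = 0.000826), Rrm2 (-0.75 ± 0.10 SE, adjusted p = 2.19e-06) and, in the other direction, Ccne2 (0.71 ± 0.17 SE, adjusted p = 0.00251), at 13.1 and 16.8 CPM in lung and 9.21 and 9.14 CPM in liver. Cdt1 was the other gene called higher in lung (0.30 ± 0.12 SE, adjusted p = 0.0441), at 73.9 and 73.5 against 59.2 and 60.3 CPM, and its call was lost without any one of the 4 libraries (adjusted p of 0.139 to 0.166). That of Ccne2 was lost without lung PSGL1hi replicate 2 (0.0722). Smallest were Cdc6 (0.02 ± 0.12), Mcm4 (-0.03 ± 0.07) and the checkpoint kinase Bub1 (-0.04 ± 0.13). So Cdc6 stood at 20.7 and 25 CPM in lung PSGL1hi and 23.7 and 21.5 CPM in liver PSGL1hi, which overlapped, but at 4.11 and 4.78 CPM in lung PSGL1lo and 13.8 and 12.4 CPM in liver PSGL1lo, which lay far apart. Also not called were Mki67 (0.10 ± 0.07), Top2a (0.09 ± 0.09), Cdk1 (-0.27 ± 0.13), Birc5 (-0.11 ± 0.15), Mcm2 (-0.18 ± 0.08), E2f1 (-0.23 ± 0.13), E2f8 (-0.22 ± 0.12) and Mybl2 (-0.12 ± 0.16). Called were Ccnb1 (-0.69 ± 0.24), Mcm5 (-0.30 ± 0.09), Pcna (-0.43 ± 0.09) and Ccne1 (-0.46 ± 0.14). The calls of Ccnb1 and Ccne1 were lost without liver or lung PSGL1hi replicate 1 (0.213 to 0.315 and 0.0775 to 0.218), and that of Mcm5 without liver PSGL1hi replicate 2 or lung PSGL1hi replicate 1 (0.085 to 0.134). Without lung PSGL1hi replicate 2 Cdk1 (0.0361) and Mcm2 (0.0193) passed as lower, and without replicate 1 Top2a passed as higher (0.043). The count of 24 fell to 9 without lung PSGL1hi replicate 1 and to 14 without liver PSGL1hi replicate 2. With library totals alone the median of all genes moved to -0.14 and the calls over all genes from 2764 higher and 2524 lower to 1947 higher and 3971 lower. The myeloid genes summed to 686 and 859 CPM in lung and 86.9 and 43.1 CPM in liver PSGL1hi libraries, and to 775 and 1172 against 128 and 41.4 CPM in PSGL1lo, and their part in these results was not tested.

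Against spleen, a comparison across the 2 library number series, most genes were lower in liver and lung. In PSGL1lo cells 40 were lower in liver and 2 higher (57.7% of all genes were called in either direction, 29% lower and 28.7% higher), and 47 were lower in lung (60% in either direction, 30.4% lower). In PSGL1hi cells 41 were lower and 1 higher in liver (57.9% in either direction, 29.4% lower and 28.5% higher), and 45 lower and 2 higher in lung (61.8% in either direction, 31% lower and 30.7% higher). Some calls of lower genes were lost when single libraries were left out. In PSGL1lo these were Cenpa, Birc5, Mcm4, Tk1, Ccne1 and E2f7 for liver and Cdt1 and Gins2 for lung. In PSGL1hi they were Mcm4 for liver and Mcm2, Mcm4, Gins2 and Foxm1 for lung. E2f1 stood out by its direction. It was at 12.2 and 12.4 CPM in spleen PSGL1hi, 20.6 and 22 CPM in liver PSGL1hi and 16.2 and 20.2 CPM in lung PSGL1hi libraries, with log2 changes of 0.79 ± 0.13 (SE; adjusted p = 3.16e-05) for liver and 0.56 ± 0.13 (SE; adjusted p = 0.00107) for lung against spleen. The 2 spleen libraries lay below all 4 of the others. In PSGL1lo cells it was higher in liver than in spleen (0.49 ± 0.15 SE, adjusted p = 0.00748), as was E2f8 (0.46 ± 0.14 SE, adjusted p = 0.0079), whose call was lost without liver PSGL1lo replicate 1 (adjusted p = 0.125), while in lung PSGL1lo E2f1 did not differ beyond the threshold (-0.32 ± 0.16 SE, adjusted p = 0.0856). Cdt1 was higher in lung than in spleen PSGL1hi cells (0.32 ± 0.12 SE, adjusted p = 0.0204), but leaving out replicate 2 of spleen PSGL1hi or either lung library lost that call (0.0587 to 0.405). The largest drops were those of Ccnb1 in PSGL1hi cells of liver (-3.26) and lung (-3.94), of Ccne2 in liver PSGL1lo (-2.33) and of Ccna2 in lung PSGL1lo (-2.82). The mitotic medians were -1.72 in liver and -2.07 in lung PSGL1hi, and the replication medians -0.80 and -1.09. In PSGL1lo cells the mitotic medians were -0.90 in liver and -1.94 in lung and the replication medians -0.47 and -1.22. All 16 replication genes lay above the mitotic median in each of these comparisons except lung PSGL1lo, where 14 did. For PSGL1hi cells of lung against spleen, library totals alone moved the median of all genes to -0.18 and the calls from 4232 higher and 4278 lower to 3380 higher and 5336 lower. Markers of other cells moved with these comparisons too. In PSGL1hi libraries the erythroid genes summed to 36.9 and 36.2 CPM in spleen, 0.719 and 0.29 CPM in liver and 0.346 and 0.118 CPM in lung, and in PSGL1lo libraries to 30.2 and 26.9 CPM in spleen, 0.544 and 1.01 CPM in liver and 0.0424 and 0.0447 CPM in lung. The 4 erythroid genes tested were lower than in spleen in each of the 4 comparisons. The B and plasma cell genes summed to 50.6 and 57.3 CPM in spleen, 4.27 and 4.17 CPM in liver and 10.1 and 10.5 CPM in lung for PSGL1hi, and to 21.2 and 19.6 CPM in spleen, 8.05 and 8.63 CPM in liver and 14.9 and 20.5 CPM in lung for PSGL1lo. The myeloid genes summed to 371 and 399 CPM in spleen, 86.9 and 43.1 CPM in liver and 686 and 859 CPM in lung for PSGL1hi, and to 192 and 179 CPM in spleen, 128 and 41.4 CPM in liver and 775 and 1172 CPM in lung for PSGL1lo. The part of these markers in the result was not tested.

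Other genes of the pathway were taken from lists chosen with results of these data known, and are given as counts, beside the shares of all genes called lower in PSGL1lo (16.7% in spleen, 12.3% in liver and 20.1% in lung). Of 44 further mitotic genes, 42 were lower in spleen PSGL1lo than PSGL1hi (median -1.24), 31 in liver (-0.63) and 41 in lung (-1.27), with 1 higher in lung, the motor Kif15 (0.36). Kif2c, a microtubule-depolymerising kinesin, had the largest change in spleen (-1.77), and the smallest was that of Pttg1, securin (-0.14 ± 0.09). Of 32 further replication genes, 31 were lower in spleen (median -0.73), 20 in liver (-0.39) and 26 in lung (-0.74). The largest was that of Dscc1, a clamp-loader subunit, in lung (-2.78) and liver (-1.16), and of Mcm10, a helicase cofactor, in spleen (-1.23). The smallest were those of Pold2, a polymerase delta subunit, in spleen (-0.23 ± 0.11) and of Pola2, of polymerase alpha, in liver (-0.01 ± 0.10) and lung (0.05 ± 0.10). In cGVHD against GVHD-free cells 16 of the further mitotic genes were higher and 2 lower (median 0.33), and 4 of the further replication genes were higher and 1 lower (0.09), where 14.7% of all genes were called higher and 12.8% lower. The share of the further replication genes called higher, 4 of 32, was not above that background. The largest mitotic rise was that of Aspm, a spindle-pole protein (0.87), and the largest replication rise that of Orc6, an origin recognition subunit (0.41).

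Smaller lists of G1 genes, inhibitors and quiescence genes were counted in the same way. Their counts are set against all genes called lower (16.7%, 12.3% and 20.1% in spleen, liver and lung), higher (15.8%, 8.5% and 12.9%) or either way (32.5%, 20.8% and 33%). Of 22 G1 cyclins, kinases and RB-E2F factors, 7 were lower and none higher in spleen PSGL1lo, 7 and none in liver, and 8 lower and 2 higher in lung, and E2f2 had the largest change in each (-1.02, -1.08 and -1.26). In spleen the 7 of 22 lay near the share of all genes called in either direction. The inhibitors and quiescence genes below were called more often than all genes in each tissue. These lists are short and were chosen with results known, so nothing particular to them is read from their counts. Ccnd1, cyclin D1, was at 61.6 ± 5.18 CPM (SD, n = 2) in GVHD-free and 15.4 ± 0.253 CPM in cGVHD spleen PSGL1lo cells, a log2 change of -2.00 ± 0.17 (SE; adjusted p = 4.08e-09), while Ccnd2 changed by -0.56 and Cdk6 by 0.53. Of 6 CDK inhibitors tested, which hold cyclin-dependent kinases back, 4 were lower in spleen PSGL1lo, 3 in liver and 4 in lung, and none was higher. Thus Cdkn1a (p21) changed by -0.70 ± 0.16 in spleen, -1.44 ± 0.13 in liver and -1.36 ± 0.12 in lung, in the same direction as the cycling genes. Between lung and liver Cdkn1a went the other way, at 50.7 ± 7.3 against 13.5 ± 0.826 CPM in PSGL1lo (1.91 ± 0.13 SE, adjusted p = 1.8e-10) and 131 ± 3.54 against 36.5 ± 3.36 CPM in PSGL1hi (1.84 ± 0.12 SE, adjusted p = 7.27e-11). The inhibitors were split there. Cdkn1b was also higher in lung (0.30 in PSGL1lo and 0.88 in PSGL1hi), but Cdkn2a (-1.13 and -1.03) and Cdkn2c (-0.47 and -0.38) were lower. Cdkn2b was lower in PSGL1lo (-0.77) and not called in PSGL1hi, and Cdkn1c was called in neither. Of 10 quiescence genes, 5 were higher and none lower in spleen PSGL1lo, led by Tcf7 (2.37), a factor of resting and stem-like T cells. In lung 2 were higher and 6 lower, with Klf2, a factor of resting recirculating T cells, at -1.10, and in liver 3 were higher and 2 lower. Tcf7 was higher in liver (1.38) and lung (0.96) too. Klf2 was also lower in liver (-1.32) and was not called in spleen (-0.32).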

How the data were processed

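Messenger RNA of 14 bulk libraries of sorted donor-derived CD4+ T cells (RNeasy extraction, Kapa mRNA HyperPrep, per the labels' protocols) was measured as raw counts per gene, deposited by the authors as 1 table. Per the submitters' processing notes TopHat2 2.0.8 and HTSeq were used with the build mm9; the annotation, the strand setting and the handling of reads that match several places were not stated in the sources used. RefSeq promoter windows and GENCODE M21 transcripts belong to GRCm38 builds, and no coordinate was moved between builds. Library totals were 13222005 to 33532595 counts, so 3 counts, the limit that a count of 0 allows, equal 0.0859 to 0.223 CPM, a figure for counting error only.

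Genes were kept by edgeR's filterByExpr (13780 of 25017), scaled by TMM and fitted by edgeR 4.0.16 (R 4.3.3) as 7 group means over all 14 libraries, with 7 residual degrees of freedom. Quasi-likelihood tests gave p-values adjusted over all genes tested by Benjamini-Hochberg, and an adjusted p under 0.05 was called. The SE is the log2 change divided by the square root of F. Interaction contrasts subtract one tissue's fraction effect from another's. The common biological coefficient of variation was 7.35%. Per-library role means used log2 CPM with a prior count of 2. Contrasts and the fit were tested on simulated counts. Alternatives used DESeq2 1.42.0, limma 3.58.1 (voom), other scaling, no filter on low counts, fewer samples and a replicate block.

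The 48 genes, their roles, the pathway and marker lists and the comparisons were chosen with earlier results of these data known. Named throughout were 14 role examples (Mki67, Top2a, Ccnb1, Cdk1, Birc5, Mcm2, Mcm5, Cdc6, Rrm2, Pcna, Ccne1, E2f1, E2f8 and Mybl2), with the 3 largest and 3 smallest changes per comparison, genes called against the direction of most, up to 8 genes by adjusted p for differences of the fraction effect, and the extremes of each pathway list. Other genes were named after their values were seen, where a count, a lost call or the range of a role turned on them. Replicate numbers were not taken to pair the libraries in the main fit, and whether they do was not settled.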

Additional observations from a re-analysis of the deposited data

Results flagged for a closer look

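The drop from PSGL1hi to PSGL1lo cells differed between tissues by a test of the difference itself, the interaction term in edgeR's quasi-likelihood fit, adjusted over 13780 genes with 2 libraries a group. Log2 differences are given ± SE, and none is explained here.

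Between liver and spleen 18 of the 48 genes passed. The 8 with the smallest adjusted p, all mitotic and all with the smaller drop in liver, were Cdk1 (1.20 ± 0.18, adjusted p = 0.000479), Prc1 (0.91 ± 0.14, adjusted p = 0.000515), Ccnb1 (1.75 ± 0.29, adjusted p = 0.000863), Nusap1 (1.08 ± 0.19, adjusted p = 0.00137), Ube2c (1.24 ± 0.22, adjusted p = 0.00158), Tpx2 (0.71 ± 0.13, adjusted p = 0.00199), Kif11 (0.83 ± 0.16, adjusted p = 0.0037) and Kif20a (0.98 ± 0.19, adjusted p = 0.00387).

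Between lung and spleen 12 genes passed, and the 8 with the smallest adjusted p had the larger drop in lung. They were replication genes and regulators: Cdc6 (-1.47 ± 0.18, adjusted p = 8.33e-06), E2f8 (-0.98 ± 0.20, adjusted p = 0.00166), Uhrf1 (-0.67 ± 0.14, adjusted p = 0.00225), Mybl2 (-1.10 ± 0.25, adjusted p = 0.00344), Cdt1 (-0.73 ± 0.17, adjusted p = 0.00479), E2f1 (-0.88 ± 0.21, adjusted p = 0.00483), E2f7 (-1.23 ± 0.30, adjusted p = 0.00629) and Mcm4 (-0.40 ± 0.10, adjusted p = 0.00678).

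Between lung and liver 28 genes passed, all with the larger drop in lung. The 8 with the smallest adjusted p came from all 3 roles: Cdc6 (-1.58 ± 0.18, adjusted p = 9.3e-06), Mki67 (-0.72 ± 0.10, adjusted p = 0.00012), Uhrf1 (-0.98 ± 0.14, adjusted p = 0.000139), E2f8 (-1.29 ± 0.19, adjusted p = 0.000154), Mybl2 (-1.58 ± 0.24, adjusted p = 0.000212), Birc5 (-1.45 ± 0.23, adjusted p = 0.000372), Tpx2 (-0.79 ± 0.13, adjusted p = 0.000553) and Prc1 (-0.86 ± 0.15, adjusted p = 0.000622).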

How the results depend on the processing

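Counts and medians were recomputed under 7 other settings and without each library in turn: 581 values stayed within the stated bounds (1.5 times for a count, the spread between replicates for a median), 36 moved further and 1 was reversed, and the cause was not tested. Medians turned sign in 3 places, of which the first is that reversal: the disease replication median (0.048, and -0.0062 with library totals), the mitotic minus replication difference of lung against liver PSGL1lo (-0.10, and 0.076 without lung PSGL1lo replicate 1), and the mitotic median of the fraction effect in lung minus spleen (0.034, and -0.14 to -0.016 without any of 4 libraries). Of 299 single changes followed, 91 changed their call or sign under at least 1 setting. A further 37, never called under any setting, were left out of that count, and 14 of them changed sign. With library totals in place of TMM, the disease medians were 0.30 for mitotic and -0.0062 for replication genes, and the replication median of lung against spleen PSGL1hi was -1.24. Under that scaling the disease changes of Mcm2 (-0.0065), Rrm2 (-0.038) and Pcna (-0.034), the liver fraction change of Ccnb1 (0.023), and the lung against liver PSGL1hi changes of Mki67 (-0.032), Top2a (-0.041) and Cdc6 (-0.12) changed sign, and none of these 7 had been called. With only the groups of the contrast, the disease replication median was 0.035, and 18 genes differed in fraction effect between lung and liver. With the replicate block the counts were 15 for disease and 48, 44 and 47 for the spleen, liver and lung fractions. They were 19, 11 and 27 for the differences between tissues, and 47 and 22 for lung against liver. For each group the replicate 1 minus replicate 2 difference in log2 CPM was taken over all genes tested. These differences correlated between groups at -0.061 to 0.084 over 21 pairs of groups, none over 0.1. The numbers were therefore not taken as pairs in the main fit, which does not settle whether they pair libraries for the 48 genes. In lung, replicate 2 was the higher for 38 of the 48 genes in PSGL1lo and for 46 in PSGL1hi. In liver, replicate 1 was the higher for 36 in PSGL1lo and replicate 2 for 29 in PSGL1hi. In cGVHD spleen, replicate 1 was the higher for 25 in PSGL1lo and replicate 2 for 27 in PSGL1hi. Names of the liver and lung libraries carry an A with replicate 1 and a B with replicate 2 in both fractions. What these letters stand for was not settled. No gene averaged under 1 CPM, so the role means without such genes are those given.

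Leaving out single libraries gave ranges as follows. The replication median was 0.063 to 0.086 for disease, -0.83 to -0.78 for the spleen fractions, -0.99 to -0.69 for lung against liver PSGL1lo, and -0.61 to -0.39 and -0.87 to -0.70 for liver against spleen in PSGL1lo and PSGL1hi. The mitotic minus replication difference was 0.28 to 0.30 for disease, -0.61 to -0.55 for the spleen fractions, 0.32 to 0.44 for liver minus spleen, -0.26 to 0.076 for lung against liver PSGL1lo, -0.44 to -0.39 and -1.01 to -0.87 for liver against spleen in PSGL1lo and PSGL1hi, and -0.90 to -0.59 and -1.09 to -0.88 for lung against spleen in the same order. Counts ranged from 12 to 28 for liver minus spleen, 6 to 14 for lung minus spleen, 15 to 33 for lung minus liver, and 9 to 27 for lung against liver PSGL1hi. Signs of uncalled changes also turned: in disease Ccnb1 (-0.0058 to 0.18), Mcm2 (-0.019 to 0.12), Mcm5 (-0.073 to 0.041), Rrm2 (-0.025 to 0.071), Pcna (-0.034 to 0.086) and Mybl2 (-0.34 to 0.15), in the liver fractions Ccnb1 (-0.36 to 0.18), and in lung against liver PSGL1hi Mki67 (-0.024 to 0.20), Top2a (-0.11 to 0.25), Birc5 (-0.41 to 0.12) and Cdc6 (-0.14 to 0.13). A fit without 1 library takes the lone sample of a group to vary like the other groups. The lowest value of any member was 37 counts, and whether depth limited low genes such as Ccnb1 in liver and lung was not tested.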
